A study of Mus musculus with 12 samples.

Results

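The Fc receptors and TREM receptors described here are 9 genes chosen by name: the IgG Fc receptor genes Fcgr1, Fcgr2b, Fcgr3 and Fcgr4, the TREM (triggering receptor expressed on myeloid cells) genes Trem1, Trem3 and Treml2, and Fcer1g and Tyrobp, which encode signalling chains. All 9 were found by symbol among the 23479 genes of the table, and all 9 passed the minimum mean level of 10 normalized counts, as did 11122 genes in all. The study compared myeloid-derived suppressor cells (MDSC), immature myeloid cells that accumulate in tumour-bearing hosts, with and without prior lymphodepletion. C57BL/6 mice carried subcutaneous B16 melanomas of more than 25 mm2. The mice were left untreated (Ctrl) or were given the lymphodepleting drugs cyclophosphamide and fludarabine (LD), and spleens were taken 7 days later. Monocytic cells (M-MDSC) and polymorphonuclear cells (PMN-MDSC) were sorted by flow cytometry, which gave, with each population taken from untreated and from treated mice, 4 groups of 3 libraries. The tumour is common to all 4 groups, so no group is from tumour-free mice, and neither the age of the mice nor the drug doses are given in the sources used here. The labels state a sort purity above 99% but not the sort markers, and they do not tie single libraries to single mice, so the p-values below measure the spread between libraries, which may be partly technical.

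Fc gamma receptors bind the constant part of IgG and link antibody to phagocytosis, killing and cytokine release by myeloid cells. Activating receptors carry or recruit an ITAM, a tyrosine motif that engages the kinase Syk, whereas the inhibitory receptor carries an ITIM, which recruits phosphatases. The activating Fc receptors borrow their ITAM from the common gamma chain, and the TREM receptors that lack a signalling tail borrow theirs from DAP12. On monocytes and neutrophils the balance between activating and inhibitory receptors sets the response to immune complexes, and TREM-1 amplifies responses to microbial products.

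Library depth ranged from 8906045 to 16242926 reads. Defining markers matched the labels: 9 of 10 monocyte markers were higher in M-MDSC Ctrl, and 11 of 13 neutrophil markers were higher in PMN-MDSC Ctrl, the exceptions being the granule genes Mpo and Elane, which are made by immature myeloid cells. After lymphodepletion the summed neutrophil markers in M-MDSC went from between 8422 and 10022 normalized counts in Ctrl to 96719, 22073 and 42005 in LD replicates 1, 2 and 3. Of the 13 neutrophil markers 9 rose in M-MDSC and none was at 0, whereas Cxcr2, a receptor of mature neutrophils, averaged 25.3 ± 14.8 in Ctrl and 56.6 ± 35.5 in LD (SD, n = 3) against 29542 ± 2976 in PMN-MDSC Ctrl. The summed monocyte markers in M-MDSC went from between 96341 and 115418 in Ctrl to 68145, 87545.5 and 81989 in LD replicates 1, 2 and 3. By gene, 1 of these 10 was called higher and none lower. The summed markers of cycling cells in M-MDSC went from between 1082 and 1329 in Ctrl to 12198, 3559 and 4949 in LD replicates 1, 2 and 3, and 5 of 6 rose. Of 8 macrophage markers tested 3 rose in M-MDSC and none fell (median log2 difference 1.49). The sum over 10 macrophage markers was 2004 to 2289 in M-MDSC Ctrl and 1836 to 2143 in LD. Most of that sum was Emr1, at 1825 to 2077 in M-MDSC Ctrl and 1387 to 1725 in LD. LD replicate 1 stood apart from the other LD libraries in both populations on the second principal component (-42.7 in M-MDSC and -41.5 in PMN-MDSC, against -20.6 to -9.22). Several results below, though not all, are given with and without the LD libraries numbered 1.

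The receptors for IgG divided the populations in untreated mice in both directions. Fcgr1, the high-affinity IgG receptor CD64, stood at 938, 971 and 1082 normalized counts in M-MDSC and at 96.9, 44.8 and 68.6 in PMN-MDSC. The groups were far apart, with a 14.7-fold higher level in M-MDSC (log2 difference 3.88 ± 0.24 SE, adjusted p = 1.7e-09, limma with Benjamini-Hochberg adjustment, as in all limma values below). Fcgr3, a low-affinity activating receptor, ran the other way, at 1992, 2479 and 2076 in M-MDSC and 8766, 7910.4 and 7012 in PMN-MDSC. It was 3.62-fold lower in M-MDSC (log2 difference -1.86 ± 0.17, limma adjusted p = 1.7e-07). Fcgr4, an activating receptor of intermediate affinity, read 167, 243 and 149.8 in M-MDSC and 1620, 1356 and 1065 in PMN-MDSC. Every PMN-MDSC library exceeded every M-MDSC library for Fcgr4, and the level was 7.24-fold lower in M-MDSC (log2 difference -2.86 ± 0.31, limma adjusted p = 9.3e-07). Fcgr2b, the inhibitory receptor, stood at 2011, 1782 and 1755 in M-MDSC against 339, 318 and 457 in PMN-MDSC. It was thus 5.03-fold higher in M-MDSC (log2 difference 2.33 ± 0.14, limma adjusted p = 1.1e-09). The plots of the 9 genes by library show these separations.

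**Figure D1:**
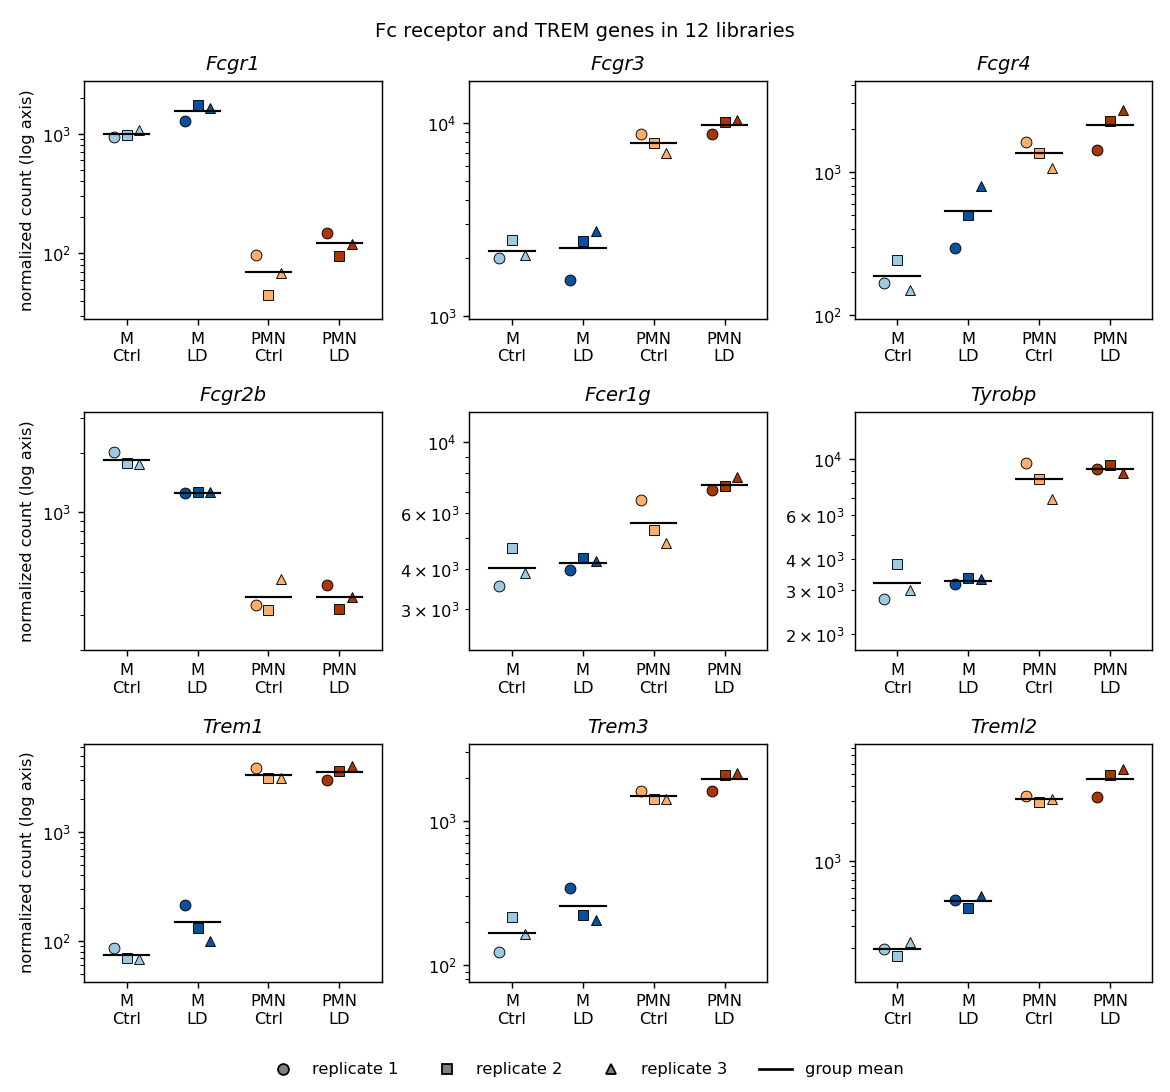
Normalized counts (log axis) of the 9 genes in the 12 libraries, 1 panel a gene, with groups on the x axis, symbols for replicate numbers and a bar for each group mean. Fcgr1 and Fcgr2b are higher in M-MDSC (Fcgr1 938 to 1082 against 44.8 to 96.9 in Ctrl) and the other 7 genes are higher in PMN-MDSC.

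Relative to exon length, the 4 Fc gamma receptors made up different mixtures in the populations. The level per kilobase of exon was summed over the 4 genes in each library and each gene was taken as a percent of that sum. In M-MDSC Ctrl, Fcgr3 made up 59.5% ± 2.24, Fcgr1 18.3% ± 2.13, Fcgr2b 15.2% ± 2.07 and Fcgr4 6.97% ± 1.30 (SD, n = 3). The mixture in PMN-MDSC Ctrl was 79.7% ± 1.22 Fcgr3 and 18.6% ± 1.55 Fcgr4, with 0.472% ± 0.148 Fcgr1 and 1.15% ± 0.373 Fcgr2b. Fcgr3 was therefore the largest share in every library of both populations, and the populations differed most in the share left to Fcgr1 and Fcgr2b. In M-MDSC LD the shares were 50.9% ± 1.996 for Fcgr3, 24.1% ± 3.10 for Fcgr1, 16.0% ± 3.94 for Fcgr4 and 8.98% ± 2.497 for Fcgr2b. Fcgr4 ranged from 5.86% to 8.397% of the sum in M-MDSC Ctrl and from 12.8% to 20.4% in M-MDSC LD, without overlap, while Fcgr2b ranged from 13.4% to 17.5% and from 7.06% to 11.8%. The shares of Fcgr3 (57.7% to 62.0% and 48.6% to 52.3%) and Fcgr1 (16.3% to 20.5% and 20.7% to 26.8%) did not overlap either. As parts of the same sum, the shares do not move independently. PMN-MDSC LD held 76.0% ± 3.69 Fcgr3, 22.5% ± 4.10 Fcgr4, 0.647% ± 0.225 Fcgr1 and 0.889% ± 0.241 Fcgr2b, each range overlapping that of Ctrl. These shares are a description with no test and depend on the lengths used: with the longest transcript in place of all exons, Fcgr2b made up 19.6% and Fcgr1 14.5% in M-MDSC Ctrl, so the order of the pair turned.

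**Figure D2:**
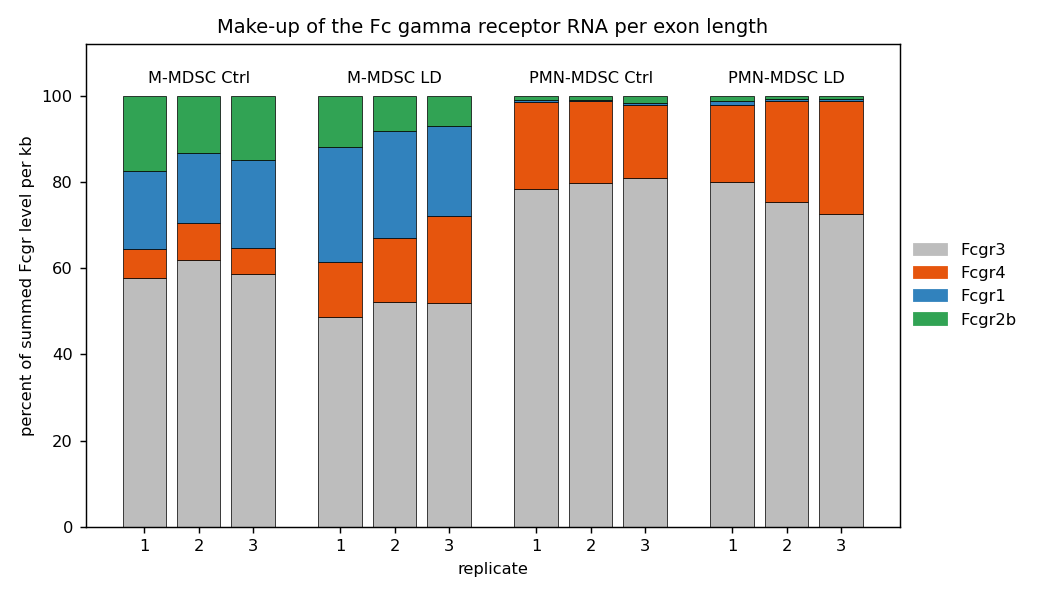
Percent of the summed level per kilobase of exon held by Fcgr3, Fcgr4, Fcgr1 and Fcgr2b in each of the 12 libraries, which are grouped by population and treatment. In M-MDSC the Fcgr4 band is wider in LD (12.8% to 20.4%) than in Ctrl (5.86% to 8.397%) and the Fcgr2b band is narrower.

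Fcgr2b, Fcgr4 and Fcgr3 lie side by side on mouse chromosome 1 (GRCm38, GENCODE M21), with Fcgr2b at 170958617 to 170976547 on the minus strand, Fcgr4 at 171018920 to 171029761 on the plus strand and Fcgr3 at 171051174 to 171064935 on the minus strand. Fcer1g lies 164636 bases beyond, at 171229572 to 171234365, and Fcgr1 is on chromosome 3 at 96282909 to 96293969, both on the minus strand. The neighbours thus had opposite patterns, Fcgr2b being higher in M-MDSC while Fcgr4 and Fcgr3 were higher in PMN-MDSC. Of the 50-base stretches of Fcgr3 exons, 9.58% also occur in Fcgr2b, and 2.92% of those of Fcgr2b occur in Fcgr3, so part of their reads cannot be assigned with certainty. No exon stretch of that length was shared with another gene for 7 of the 9 members. Fcgr2b is also overlapped by the antisense gene Gm38204, and no strand setting of the counting is given in the sources used here.

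The promoters of the 4 Fc gamma receptor genes are printed because these genes, 3 of them neighbours, took opposite directions between the populations. Each sequence is the RefSeq window of 300 bases (250 before to 50 after an annotated start, GRCm38.p6, printed on the strand of the gene), from chr1:170976022-170976321 (minus strand) for Fcgr2b, chr1:171018676-171018975 (plus strand) for Fcgr4, chr1:171059354-171059653 (minus strand) for Fcgr3 and chr3:96293920-96294219 (minus strand) for Fcgr1. Capitals mark a match to GAGGAAG or its reverse complement CTTCCTC, a core recognised by PU.1, the myeloid transcription factor.
Fcgr2b: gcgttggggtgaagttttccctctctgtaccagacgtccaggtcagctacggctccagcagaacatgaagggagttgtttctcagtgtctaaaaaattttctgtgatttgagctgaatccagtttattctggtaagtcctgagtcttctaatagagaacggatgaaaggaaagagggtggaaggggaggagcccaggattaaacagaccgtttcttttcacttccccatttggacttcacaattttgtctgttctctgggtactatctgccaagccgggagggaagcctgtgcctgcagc
Fcgr4: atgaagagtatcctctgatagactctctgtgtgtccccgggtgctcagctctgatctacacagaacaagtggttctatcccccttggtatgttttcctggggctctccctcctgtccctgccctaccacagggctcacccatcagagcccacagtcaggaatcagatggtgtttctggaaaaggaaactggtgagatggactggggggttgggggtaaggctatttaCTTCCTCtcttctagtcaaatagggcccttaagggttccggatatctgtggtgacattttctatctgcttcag
Fcgr3: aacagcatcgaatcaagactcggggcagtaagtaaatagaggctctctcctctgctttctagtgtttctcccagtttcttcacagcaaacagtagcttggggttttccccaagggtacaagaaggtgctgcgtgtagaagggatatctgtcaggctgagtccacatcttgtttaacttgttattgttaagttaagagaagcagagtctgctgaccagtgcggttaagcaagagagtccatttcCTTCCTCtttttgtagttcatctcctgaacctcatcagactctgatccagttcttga
Fcgr1: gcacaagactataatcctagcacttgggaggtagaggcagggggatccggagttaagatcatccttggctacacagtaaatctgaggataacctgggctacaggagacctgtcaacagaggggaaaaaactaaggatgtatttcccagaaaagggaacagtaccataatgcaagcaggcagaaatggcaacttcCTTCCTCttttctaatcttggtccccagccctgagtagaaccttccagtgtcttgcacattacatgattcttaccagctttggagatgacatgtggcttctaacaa

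The 3 activating receptor genes had this core on the opposite strand, at 23 bases before the start in Fcgr4, 7 in Fcgr3 and 56 in Fcgr1, and the Fcgr2b window had none. Among 32851 RefSeq promoter windows of the same length 13.6% held it on either strand. Promoter windows were matched for 6 of the 9 genes, and those of Fcer1g and Trem1 did not hold the core. Further motifs were searched on both strands. The interferon-gamma-activated TTCNNNGAA, in 8.30% of windows, occurred at 109 bases before the start of Fcgr1 and 171 before that of Trem1. A pair of GAAA stretches with 2 bases between them, as in interferon-stimulated response elements, was in 3.44% of windows and occurred in Fcgr4 at 73 bases before the start, and the C/EBP motif TTGCNNAA, in 10.8%, occurred in Fcgr3. A match is a description of the letters and not a binding site.

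Both signalling chains were higher in PMN-MDSC of untreated mice, by less than any of the 7 receptor genes differed. Fcer1g, the common gamma chain, read 3547, 4663 and 3881 in M-MDSC and 6595, 5318 and 4822 in PMN-MDSC. The highest M-MDSC library came close to the lowest PMN-MDSC library, and the log2 difference of -0.47 ± 0.12 passed the test (limma adjusted p = 0.0026). Tyrobp, which encodes DAP12, read 2758, 3814 and 3009 in M-MDSC and 9602, 8354 and 6951.5 in PMN-MDSC. Its 2.60-fold lower level in M-MDSC (log2 difference -1.38 ± 0.13) also passed (limma adjusted p = 1.3e-07). Tyrobp lies on chromosome 7 at 30413760 to 30417585 on the plus strand, 126 bases from Hcst on the other strand, which encodes the related chain DAP10. Hcst had a log2 difference of -3.02 ± 0.27 in the same comparison (limma adjusted p = 9.3e-08) and is given here for its position.

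Trem1 and Treml2 had the largest differences of the 9 genes between the populations in Ctrl. Trem1, the amplifying receptor TREM-1, read 86.9, 69.9 and 67.9 in M-MDSC Ctrl and 3841, 3102 and 3113 in PMN-MDSC Ctrl. That is a 44.2-fold lower level in M-MDSC (log2 difference -5.47 ± 0.22, limma adjusted p = 2.2e-11). Treml2, which encodes the TREM-like receptor TLT-2, read 195, 171 and 223 against 3328, 2979 and 3113, and was 16.0-fold lower in M-MDSC (log2 difference -4.00 ± 0.16, limma adjusted p = 2.4e-11). Trem3, a mouse receptor that pairs with DAP12, read 123, 214 and 164 against 1614, 1423 and 1421, and was 9.06-fold lower in M-MDSC (log2 difference -3.18 ± 0.21, limma adjusted p = 3.6e-09). The 3 genes lie in 1 cluster on chromosome 17, with Trem1 at 48232768 to 48246924, Trem3 at 48247777 to 48258841 and Treml2 at 48299498 to 48312533, all on the plus strand. Trem1 contains the processed pseudogene AC241601.2 on the opposite strand.

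Between the populations all 9 genes passed in Ctrl, 2 higher and 7 lower in M-MDSC, where 75.6% of all genes passed, so passing this comparison says little by itself. No library of 1 population overlapped the other for any of the 9, and 81% of all genes behaved likewise. The median log2 difference of the 9 was -1.86, against 0.06 over all genes. In LD all 9 passed again, in the same directions and without overlap, where 74.8% of all genes passed (38.8% higher and 36.1% lower) and 75.2% did not overlap. The LD differences were 3.68 for Fcgr1, 1.76 for Fcgr2b, -2.15 for Fcgr3, -2.07 for Fcgr4, -0.82 for Fcer1g, -1.48 for Tyrobp, -4.63 for Trem1, -2.95 for Trem3 and -3.23 for Treml2, with limma adjusted p between 1.3e-10 and 2.6e-05. All of these calls held under every one of the 23 alternative settings in each treatment group. In such bulk libraries, fewer cells of a type and less RNA per cell cannot be told apart.

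In M-MDSC after lymphodepletion 2 of the 4 Fc gamma receptor genes passed, Fcgr4 upward and Fcgr2b downward. Fcgr4 read 167, 243 and 149.8 in Ctrl and 293, 503 and 790.1 in LD replicates 1, 2 and 3. All LD libraries were above all Ctrl libraries, although the LD values differed widely among themselves. Fcgr4 rose 2.67-fold (log2 change 1.42 ± 0.31, limma adjusted p = 0.0214). Without LD replicate 3, the highest, the change was 1.07 (limma adjusted p = 0.0915), and without LD replicate 1 it was 1.78 (0.0026). The Fcgr4 call was also lost without Ctrl replicate 1 (0.0888), without Ctrl replicate 3 (0.0961) and with only the 6 M-MDSC libraries fitted (0.0574), and was kept by edgeR (0.0155) and DESeq2 (7.0e-05) on the recovered reads.

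Fcgr2b read 2011, 1782 and 1755 in M-MDSC Ctrl and 1250.3, 1263 and 1260.0 in LD. The LD libraries were nearly identical and all lay below Ctrl. Fcgr2b fell by 0.55 ± 0.14 on the log2 scale, to 0.682 of the Ctrl level (limma adjusted p = 0.0406). This call was close to the threshold and was lost in 9 of 22 alternatives. These were no minimum level and the omission of any 1 of the 6 M-MDSC libraries, PMN-MDSC Ctrl replicate 1 or PMN-MDSC LD replicate 3. The highest limma adjusted p, 0.183, was without M-MDSC Ctrl replicate 1. The Fcgr2b change itself stayed between -0.59 and -0.49 in all 22 alternatives, and edgeR (adjusted p = 0.0249) and DESeq2 (0.0027) made the call. Fcgr2b is also the main Fc receptor of B cells. The B-cell gene Cd79a, near the floor, averaged 2.68 ± 1.06 in M-MDSC Ctrl (SD, n = 3) and was at 0 in all M-MDSC LD libraries. Cd79b, another B-cell gene, overlapped, at 38.9, 46.9 and 38.7 in M-MDSC Ctrl and 32.6, 62.0 and 30.5 in LD. Of 3 B and plasma cell markers tested, 1 was called lower in M-MDSC LD (median log2 difference -0.06). The summed B and plasma cell markers were 172 to 457 in M-MDSC Ctrl and 89.1 to 133 in LD, where 5 of the 8 were at 0 in all libraries, and their part in the Fcgr2b change was not tested.

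Fcgr1 and Fcgr3 of M-MDSC did not pass. Fcgr1 read 938, 971 and 1082 in Ctrl and 1271, 1730.5 and 1656 in LD, without overlap, for a log2 difference of 0.63 ± 0.24 (95% interval 0.12 to 1.13, limma adjusted p = 0.215). DESeq2 (adjusted p = 0.0348) and a fit of the 6 M-MDSC libraries alone (limma, 0.0340) called Fcgr1 higher, and edgeR did not (0.0865). Fcgr3 read 1992, 2479 and 2076 in Ctrl and 1543, 2445 and 2773 in LD, so the LD libraries lay on both sides of Ctrl, with a log2 difference of 0.01 (95% interval -0.36 to 0.38, limma adjusted p = 0.998).

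The signalling chains had the smallest differences in M-MDSC next to Fcgr3. Fcer1g was 3974, 4339.8 and 4223 in LD, within the Ctrl range of 3547 to 4663, with a log2 difference of 0.06 (95% interval -0.19 to 0.32, limma adjusted p = 0.946). Tyrobp was 3161, 3345 and 3326 in LD, within the Ctrl range of 2758 to 3814, with a log2 difference of 0.05 (95% interval -0.22 to 0.32, limma adjusted p = 0.963).

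Among the TREM genes, Treml2 gave the firmest change of the 9 in M-MDSC. It read 195, 171 and 223 in Ctrl and 480.3, 421 and 520.2 in LD, a 2.41-fold rise (log2 change 1.27 ± 0.16, limma adjusted p = 6.3e-04). All LD values were far above all Ctrl values, and the call held in each of 22 alternatives, with the highest adjusted p 0.0082 and a change of 1.26 with both LD libraries numbered 1 left out. Trem1 read 86.9, 69.9 and 67.9 in Ctrl and 214, 132 and 99.5 in LD replicates 1, 2 and 3. The groups did not overlap, and Trem1 rose 1.89-fold (log2 change 0.92 ± 0.22, limma adjusted p = 0.0328). Leaving out LD replicate 1 of M-MDSC, the Trem1 change was 0.62 (limma adjusted p = 0.0889). It was lost in 8 of 22 alternatives, among them leaving out any 1 M-MDSC Ctrl library, PMN-MDSC Ctrl replicate 2 or 3, and fitting the 6 M-MDSC libraries alone (0.142). Trem3 read 123, 214 and 164 in Ctrl and 343, 222 and 207 in LD, which overlapped, with a log2 difference of 0.62 ± 0.21 (limma adjusted p = 0.145), and 0.39 without LD replicate 1 (0.460).

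Summed neutrophil markers moved with these genes in M-MDSC, and not in the same order of libraries for each. Trem1 and Trem3 were highest in LD replicate 1, which had the highest neutrophil sum. In LD replicate 3 both were lower than in LD replicate 2, while the neutrophil sum was higher (42005 against 22073). Fcgr4 was lowest in replicate 1 among the LD libraries, and Treml2 differed little between them while the neutrophil sum ranged from 22073 to 96719. Trem1, Trem3, Treml2 and Fcgr4 all are at higher levels in PMN-MDSC than in M-MDSC, and the part of the neutrophil markers in their changes was not tested. The plot of each LD library over its Ctrl mean shows the 9 genes above these marker sums.

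**Figure D3:**
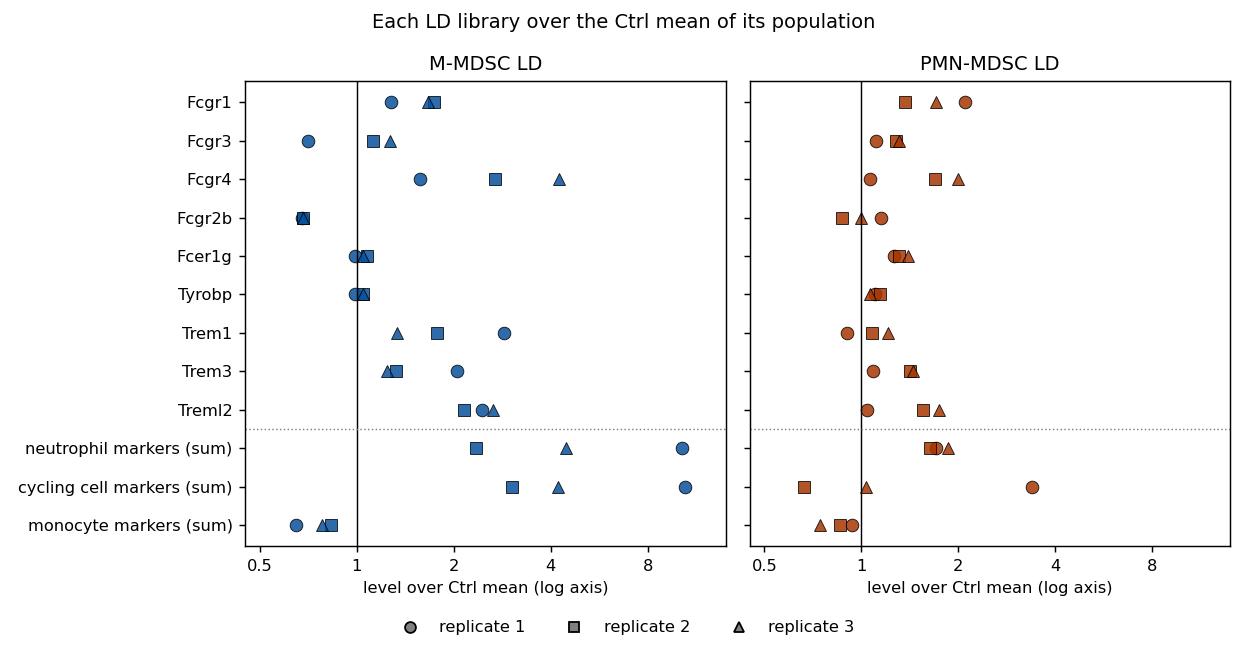
Level in each LD library divided by the Ctrl mean of its population (log axis) for the 9 genes and for the summed neutrophil, cycling cell and monocyte markers, with symbols for replicate numbers. In M-MDSC, replicate 1 has a neutrophil sum 10.2 times the Ctrl mean, while the Fcgr2b ratios of the 3 libraries lie on each other.

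In M-MDSC, 4 of the 9 genes thus passed, where 3.01% of all genes did. Of these, 3 rose (2.54% of all genes) and 1 fell (0.468%), and 5 of the 9 had no overlap between Ctrl and LD (23.1%). The median log2 difference of the 9 was 0.62, against -0.04 over all genes. The set was named with earlier results of these data known, so these shares describe it and are no test of it.

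In PMN-MDSC the genes that passed after lymphodepletion were Fcgr1, Fcer1g and Treml2. Fcgr1 read 96.9, 44.8 and 68.6 in Ctrl and 147, 95.6 and 119 in LD, a 1.77-fold rise (log2 change 0.82 ± 0.24, limma adjusted p = 0.0301) although the lowest LD library lay just below the highest Ctrl library. Ctrl replicate 3 rested on 43 reads, the fewest for any of the 9 genes in any library. That call was lost in 7 of 22 alternatives: without PMN-MDSC Ctrl replicate 2 or 3, without PMN-MDSC LD replicate 1 or 3, without both LD libraries numbered 1 (limma adjusted p = 0.0631), with no minimum level and with only the PMN-MDSC libraries fitted (0.132). Without PMN-MDSC Ctrl replicate 2 the Fcgr1 change was 0.54. Fcer1g read 6595, 5318 and 4822 in Ctrl and 7059, 7284 and 7772 in LD, without overlap. The gamma chain gene rose 1.33-fold (log2 change 0.41 ± 0.12, limma adjusted p = 0.0308), a call lost in 5 of 22 alternatives, namely without PMN-MDSC Ctrl replicate 2 or 3, without LD replicate 2 or 3 and with no minimum level (highest adjusted p 0.141).

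Treml2 in PMN-MDSC read 3328, 2979 and 3113 in Ctrl and 3275, 4863 and 5452 in LD replicates 1, 2 and 3. Replicate 1 lay within Ctrl and the other LD libraries lay well above it. The 1.41-fold rise (log2 change 0.50 ± 0.16) was just past the threshold (limma adjusted p = 0.0489) and was lost in 14 of 22 alternatives, including the omission of any 1 library other than PMN-MDSC LD replicate 1. Without that library the Treml2 change was 0.72, and with both LD libraries numbered 1 left out the adjusted p was 0.0018 (limma).

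Fcgr4 in PMN-MDSC had the same order of libraries, at 1620, 1356 and 1065 in Ctrl and 1428, 2274 and 2685 in LD replicates 1, 2 and 3. Its log2 difference of 0.63 ± 0.31 did not pass (limma adjusted p = 0.183), and without PMN-MDSC LD replicate 1 it was 0.90, again not passing (0.0617). With M-MDSC LD replicate 1 left out as well, an alternative added after seeing the data, the change of 0.90 passed (0.0138). Fcgr3 had a log2 difference of 0.30 (limma adjusted p = 0.247), which was 0.38 without PMN-MDSC LD replicate 1 (0.177) and passed only with both LD libraries numbered 1 left out (0.0281), its values being 8766, 7910.4 and 7012 in Ctrl and 8758, 10108 and 10345 in LD. The summed cycling cell markers, 2480 to 3229 in PMN-MDSC Ctrl, were 9584, 1868 and 2907 in LD replicates 1, 2 and 3, so the PMN-MDSC library with the lowest Fcgr4, Fcgr3, Trem1, Trem3 and Treml2 of its group had the highest of these sums. The summed neutrophil markers of PMN-MDSC went from between 478575 and 501142 in Ctrl to 837115, 804278 and 913014 in LD replicates 1, 2 and 3. Of these 13 markers 7 rose and 1 fell, where 7.17% of all genes rose and 8.51% fell. The part of the cycling cell and neutrophil markers in the PMN-MDSC results was not tested.

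Fcgr2b, Tyrobp, Trem1 and Trem3 did not pass in PMN-MDSC. Fcgr2b had a log2 difference of 0.02 (95% interval -0.27 to 0.31, limma adjusted p = 0.946), with LD at 426, 324 and 370.2. The difference was 0.15 for Tyrobp (-0.12 to 0.42), 0.08 for Trem1 (-0.38 to 0.55) and 0.39 for Trem3 (-0.06 to 0.83), with limma adjusted p of 0.446, 0.831 and 0.221. In all, 3 of the 9 genes rose and none fell in PMN-MDSC, where 15.7% of all genes passed (7.17% higher), and 1 of the 9, Fcer1g, had no overlap (31.9% of all genes). Their median log2 difference was 0.39, against -0.05 over all genes.

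**Figure D4:**
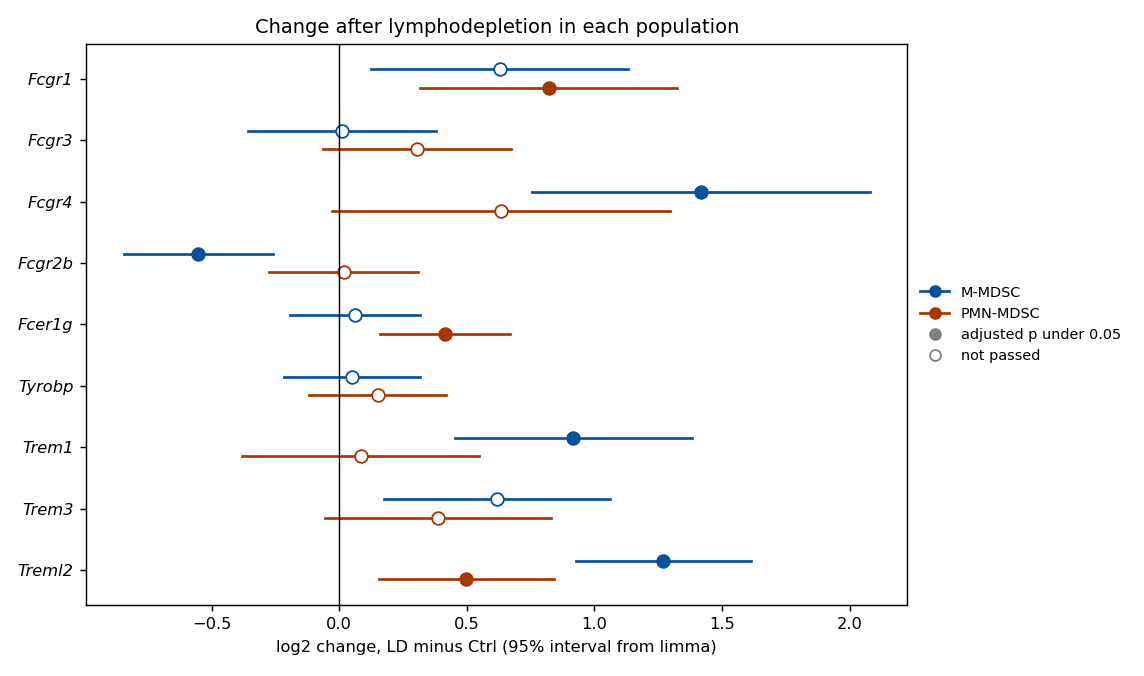
Log2 change (LD minus Ctrl, points) with its 95% interval from limma (lines) for the 9 genes in M-MDSC and PMN-MDSC, with filled points for adjusted p under 0.05. Fcgr2b in M-MDSC (-0.55) is the only filled point below 0, and the intervals of Fcgr3 and Tyrobp cross 0 in both populations.

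Whether the response differed between the populations was tested directly as the difference of the LD changes. By limma with no block none of the 9 passed, where 2.25% of all genes did (1.18% with the higher change in M-MDSC and 1.07% with the lower). Treml2 was nearest, with a change larger by 0.77 ± 0.23 in M-MDSC (95% interval 0.29 to 1.26, limma adjusted p = 0.0870). Next in order of adjusted p were Fcgr2b (difference -0.57, limma adjusted p = 0.135) and Trem1 (0.83, 0.170). With both LD libraries numbered 1 left out, the Trem1 difference was 0.42 (limma adjusted p = 0.278), that of Treml2 0.54 (0.0847) and that of Fcgr2b -0.47 (0.186). Without M-MDSC LD replicate 1 alone the Trem1 difference was 0.54 (0.246). edgeR called none of the 9, and DESeq2 called Treml2 (adjusted p = 0.0486). The 5 genes called in 1 population only, Fcgr4, Fcgr2b and Trem1 in M-MDSC and Fcgr1 and Fcer1g in PMN-MDSC, are thus not shown to differ between them by any of the 3 tools.

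The balance of activating over inhibitory Fc gamma receptors was computed in each library as the mean log2 level of Fcgr1, Fcgr3 and Fcgr4 minus that of Fcgr2b. It does not depend on the scaling of libraries, and it compares libraries, not genes, since lengths are not taken into account. In M-MDSC it was -1.57, -1.09 and -1.33 in Ctrl and -0.59, 0.03 and 0.29 in LD, with no overlap and means of -1.33 ± 0.24 and -0.09 ± 0.45 (SD, n = 3). The difference was 1.24 (exact permutation test, two-sided, p = 0.10, the smallest that 3 against 3 libraries can give). Without M-MDSC LD replicate 1 the difference was 1.49. In PMN-MDSC the balance was 1.72, 1.31 and 0.81 in Ctrl and 1.53, 2.01 and 2.01 in LD, which overlapped. Its difference there was 0.57 (exact permutation p = 0.20), and 0.34 without PMN-MDSC Ctrl replicate 3. M-MDSC lay 2.61 below PMN-MDSC in Ctrl and 1.94 below in LD, each with an exact permutation p of 0.10. The activating genes did not share a direction in these gaps. In Ctrl their log2 differences were 3.88 for Fcgr1, -1.86 for Fcgr3 and -2.86 for Fcgr4, against 2.33 for Fcgr2b. In LD they were 3.68, -2.15 and -2.07, against 1.76 for Fcgr2b. The gaps thus do not show activating genes lower as a group in M-MDSC. With Fcgr4 alone in place of the 3 activating genes the differences were 1.97 for LD in M-MDSC, -5.19 between the populations in Ctrl and -3.83 in LD.

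Ordered by group mean, Fcgr1 was highest in M-MDSC LD, then M-MDSC Ctrl, PMN-MDSC LD and PMN-MDSC Ctrl, and its M-MDSC groups did not pass the test. For Fcgr2b, M-MDSC Ctrl was followed by M-MDSC LD and by both PMN-MDSC groups, which did not differ beyond their spread. The other 7 genes all ran from PMN-MDSC LD through PMN-MDSC Ctrl and M-MDSC LD to M-MDSC Ctrl. Neighbouring groups in that order did not pass the test between the PMN-MDSC groups for Fcgr3, Fcgr4, Tyrobp, Trem1 and Trem3, or between the M-MDSC groups for Fcgr3, Fcer1g, Tyrobp and Trem3. The gene of closest pattern was sought for each member, with other members, genes under the minimum level and predicted or clone names left out. Of the genes searched, those whose log2 levels followed most closely over the 12 libraries were Ptprj for Fcgr1 (Pearson r = 0.995), Pigk for Fcgr2b (0.993), Mob3a for Fcgr3 (0.995), Gbp2 for Fcgr4 (0.982), Gapdh for Fcer1g (0.986), Wbp2 for Tyrobp (0.993), Il1f9 for Trem1 (0.996), Bmpr1a for Trem3 (0.996) and Plxnc1 for Treml2 (0.997). All these values are dominated by the difference between the 2 populations, which the 12 libraries share, and are descriptions.

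The wider pathway was read from 6 lists of related genes. Of other myeloid receptors that couple to ITAM chains, 15 of 20 were tested, and in Ctrl 12 were lower and 2 higher in M-MDSC (median log2 difference -2.63, against 0.06 over all genes, of which 36.8% were lower and 38.8% higher). Clec4d, a C-type lectin that pairs with the gamma chain, had a log2 difference of -6.10 ± 0.24 (limma adjusted p = 2.1e-11). The ITAM signalling cascade had 20 of 31 lower and 4 higher in M-MDSC (median -0.94), among them the GTPase gene Rac2 at -2.61 ± 0.13 and Rasgrp4, which encodes an exchange factor of Ras, at -2.10 ± 0.10. The list of inhibitory ITIM receptors also leaned to PMN-MDSC, with 11 of 17 lower and 2 higher in M-MDSC (median -0.96). Its smallest adjusted p values were those of Cd33 at -5.45 ± 0.14 and Siglece at -4.44 ± 0.13, both sialic acid receptors. Membership of this list is by name, and whether each protein carries an ITIM in mouse was not checked. Fcgr2b, the ITIM receptor among the 9, was on the other side. The downstream phosphatases and adaptors had 7 of 14 lower and 4 higher (median -0.55). Of the TREM family genes outside the set, Trem2, a DAP12 receptor of macrophages, was 12.5-fold higher in M-MDSC (limma adjusted p = 6.0e-06), opposite to Trem1, Trem3 and Treml2. Of the other Fc receptors only 2 of 11 were tested, and Fcgrt, which encodes the neonatal Fc receptor, was 8.12-fold higher in M-MDSC (limma adjusted p = 2.6e-06) while Fcrl1 was lower.

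For LD in M-MDSC the call shares of these lists are to be read against the 3.01% of all genes that passed (2.54% higher and 0.468% lower). Of the ITAM cascade 1 of 31 rose, Pik3ap1, which encodes the phosphoinositide 3-kinase adaptor BCAP (log2 change 0.63 ± 0.10, limma adjusted p = 0.0030), and none fell (median -0.04, as over all genes). Of 17 ITIM receptors 2 rose and none fell (median 0.09). Lair1, an inhibitory collagen receptor, rose by 0.82 ± 0.15 on the log2 scale (limma adjusted p = 0.0084), and this call and that of Pik3ap1 held in all 22 alternatives. Pilra rose by 0.52 ± 0.12 (limma adjusted p = 0.0325), a call lost in 7 of 22 alternatives. It was lost without M-MDSC Ctrl replicate 1 or 3, M-MDSC LD replicate 2 or 3, or PMN-MDSC Ctrl replicate 2. No minimum level and a fit of the M-MDSC libraries alone also lost it. Of 15 other ITAM-coupled receptors, Cd300ld rose by 0.48 ± 0.11 (0.0271) and Clec4d fell by 1.07 ± 0.24 (0.0257), again by limma. Both calls were lost without M-MDSC Ctrl replicate 1 or 2 or LD replicate 2. That of Cd300ld was also lost without Ctrl replicate 3, LD replicate 1 or both LD libraries numbered 1, and with no minimum level (7 of 22 alternatives). That of Clec4d was also lost without LD replicate 3 and with the M-MDSC libraries fitted alone (5 of 22). Treml4, another TREM family gene, rose by 0.60 ± 0.15 (limma adjusted p = 0.0459), a call lost in 9 of 22 alternatives. These were no minimum level and the omission of M-MDSC Ctrl replicate 1 or 3, any M-MDSC LD library or any PMN-MDSC Ctrl library. The phosphatases and adaptors nearest to the threshold were Dok2, with a log2 difference of 0.99 ± 0.35 (limma adjusted p = 0.178), and Ptpn6, which encodes SHP-1, with 0.23 ± 0.08 (0.188).

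In PMN-MDSC 15.7% of all genes passed (7.17% higher and 8.51% lower), and the difference between the populations in these counts was not tested. The ITAM cascade had 1 of 31 higher and 5 lower (median -0.07, against -0.05 over all genes), including the adaptor gene Lcp2, which encodes SLP-76 and fell by 0.41 ± 0.08 (limma adjusted p = 0.0031), and the phosphoinositide 3-kinase genes Pik3cd and Pik3r5, which fell by 0.35 ± 0.08 (0.0091) and 0.38 ± 0.09 (0.0114). The 17 ITIM receptors split, 5 higher and 4 lower (median -0.14). Ceacam1 rose by 0.81 ± 0.11 (limma adjusted p = 5.8e-04) and Clec4a2 by 0.99 ± 0.18 (0.0031), whereas Cd300a fell by 0.50 ± 0.09 (0.0038). Ptpn11, which encodes the phosphatase SHP-2, rose by 0.39 ± 0.08 (limma adjusted p = 0.0066), as 2 of 14 phosphatases and adaptors did while 1 fell. Of 15 other ITAM-coupled receptors 1 rose and 4 fell (median -0.17), with Pira6, a gamma chain partner, down by 1.48 ± 0.28 (limma adjusted p = 0.0037). These calls of Lcp2, Pik3cd, Pik3r5, Ceacam1, Clec4a2, Cd300a, Ptpn11 and Pira6 held in all 22 alternatives, although Pira6 belongs to a family of near-identical genes whose reads may be shared. Other limma calls of these lists were less firm. They were Klrk1 (log2 change -2.85, lost in 3 of 21 alternatives), Clec7a (-0.54, 5 of 22), Dok2 (1.31, 4 of 22) and Inppl1 (-1.07, 10 of 22).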

How the data were processed

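RNA from sorted spleen M-MDSC and PMN-MDSC, Ctrl and LD, was sequenced after removal of ribosomal RNA, in 12 libraries of 4 groups. The deposited table holds 1 signal per gene and library, a normalized read count. Per the submitters' processing notes the tools were STAR 2.5.3a, HTSeq 0.6.1 and DESeq2 and the build mm10, with no roles or order given, and the strand setting is not given in the sources used here. Each column consisted of whole multiples of 1 step, so the deposited values are counts divided by 1 size factor a library: 100.0% of values came out whole within 0.001 reads. The reads carry no molecular identifiers.

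The main test was limma 3.58.1 (trend, R 4.3.3) on log2(normalized count + 1), with 4 group means over 12 libraries (8 residual degrees of freedom), a minimum mean of 10 (11122 genes) and Benjamini-Hochberg adjustment over all genes tested. A call is an adjusted p under 0.05, and log2 changes are on that scale, which understates the change of low genes. edgeR 4.0.16 (quasi-likelihood) on recovered reads called 424 genes for LD in M-MDSC and 1662 in PMN-MDSC, and DESeq2 1.42.0 called 723 and 2168. Other alternatives were TMM scaling, pseudocounts of 0.5 and 8, no minimum and a minimum of 50, a replicate block, only the groups compared, each library left out and, chosen after seeing the data, both LD libraries numbered 1 left out and the longest transcript as length. The fit was also run on simulated counts, drawn independently for each library with changes in M-MDSC LD only. Those counts did not hold the shift of the LD libraries numbered 1, and no result above rests on them.

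The members and the gene lists (6 pathway lists, 9 marker lists) were chosen with earlier results of these data known. In each comparison the text could name at most 3 called genes of a pathway list, in order of adjusted p, or as values at most 2 where none was called, along with the gene of closest pattern for each member. Exon lengths are from GENCODE M21 and promoters from RefSeq.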

Additional observations from a re-analysis of the deposited data

Results flagged for a closer look

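Of the 81 genes tested in the pathway lists, 3 (3.7%, against 2.25% of all genes) had LD changes that differed between M-MDSC and PMN-MDSC by the test of the difference itself, and none of the 9 Fc receptor and TREM genes did. For Lair1, the inhibitory collagen receptor, the LD change was 0.82 in M-MDSC and -0.37 in PMN-MDSC, a difference of 1.19 ± 0.22 on the log2 scale (limma adjusted p = 0.0120) that passed in all 22 alternatives. For Pira6, a gamma chain partner, the difference was 1.79 ± 0.40 (limma adjusted p = 0.0339). It did not pass in 9 of 22 alternatives: with no minimum level and without any 1 Ctrl library of either population or M-MDSC LD replicate 2 or 3 (highest adjusted p 0.0873). For Lcp2, the adaptor SLP-76, the difference was 0.47 ± 0.11 (limma adjusted p = 0.0352), which did not pass in 11 of 22 alternatives, with no minimum level and without any 1 library other than the LD libraries numbered 1 (highest adjusted p 0.0933).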

How the results depend on the processing

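No result of the 9 genes turned direction where it was called. Their calls between M-MDSC and PMN-MDSC were the same in every alternative run, and of the LD calls only that of Treml2 in M-MDSC was. The number of genes called for LD in M-MDSC, 335, became 723 with DESeq2 and 192 to 549 with 1 library left out. For the difference of the LD changes, 250 genes became 699 with DESeq2, 125 with no minimum level, 536 with a block by presumed animal, 773 with both LD libraries numbered 1 left out and 113 to 832 with 1 library left out. For LD in PMN-MDSC, 1745 became 890 to 2162 with 1 library left out. The cause was not tested. The replicate block gave 373 genes for LD in M-MDSC, 1657 in PMN-MDSC, 213 for the difference, and 8365 and 8277 between populations in Ctrl and LD. The series names 3 mice an arm, but whether libraries of the same number in an arm came from 1 mouse is not given. Correlations of their deviations were 0.21, 0.12 and 0.07 in LD, where each M-MDSC library matched best the PMN-MDSC library of its number, and -0.04, 0.05 and 0.13 in Ctrl, not all over 0.1, so no block was used in the main test. The block by presumed animal called Treml2 in the difference of the LD changes (limma adjusted p = 0.0399). With 3 libraries a group no exact test could go below 0.10. Depth limits Fcgr1 in PMN-MDSC and Trem1 in M-MDSC most.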
